A study of Mus musculus with 12 samples.

Results

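Integrins are the adhesion receptors that let leukocytes hold on to vessel walls, matrix and particles. The 10 subunit genes described here were taken by symbol from a fixed list of leukocyte integrins, Itgam, Itgax, Itgal, Itgb2, Itga4, Itga5, Itga6, Itgav, Itgb1 and Itgb5. All 10 were found among the 12339 genes of the deposited count table, and all 10 passed the filter on low counts.

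The RNA came from mouse peritoneal macrophages that had been drawn into the peritoneum with thioglycolate, a sterile irritant, and washed out by lavage. The mice were wild type (WT) or carried the genotype labelled meKO, read here from the series title as loss of protein kinase C epsilon (gene Prkce) in myeloid cells. The line or promoter used for the deletion is not named in the labels. All mice of both genotypes and both diets had received AAV8PCSK9 at 8 weeks of age, a virus that lowers the hepatic LDL receptor, so the chow groups carried it too. The diet was chow or a Western-type high-fat feed (HFD), which together with the virus raises cholesterol, and cells were collected 4 weeks later. Each genotype on each diet formed a group, giving 4 groups of 3 libraries (12 in all), while the labels describe 8 animals of each genotype with 4 of them on HFD. Each library title carries a number of its own, and nothing in the labels states outright that every library is a separate animal. The p-values below therefore measure the spread between these libraries.

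An integrin is a pair of an alpha and a beta chain that reach the cell surface only together. The beta-2 chain (Itgb2, CD18) pairs with the leukocyte alpha chains alpha-M (Itgam, CD11b), alpha-X (Itgax, CD11c) and alpha-L (Itgal, CD11a), and the resulting receptors bind complement fragments, fibrinogen and ICAMs. The beta-1 chain (Itgb1) pairs with alpha-4, alpha-5, alpha-6 and alpha-V, which bind VCAM-1 and fibronectin, fibronectin, laminin and RGD-containing matrix in that order, and alpha-V also pairs with beta-5 (Itgb5). Inside the cell talin, kindlins and Rap1 with its effector RIAM (Apbb1ip) switch integrins to the binding state, which in macrophages serves adhesion, migration and uptake of particles.

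Itga4 lies at chr2:79255426-79333114, Itgam at chr7:128062640-128118491, Itgax at chr7:128129526-128150657 and Itgb1 at chr8:128685654-128733579 in RefSeq's GRCm38.p6 gene table. Itgal, at chr7:127296139-127335137, is on the same chromosome as Itgam and Itgax. Of the 10 genes, 7 had a promoter window in the RefSeq promoter table of that build, Itgam, Itgax, Itga4, Itga5, Itgav, Itgb1 and Itgb5. A window runs from 250 bases before to 50 bases after the annotated start. The windows of the 3 alpha chains with the lowest HFD-to-chow ratio in WT mice are shown, with that of Itgb1, the beta chain of Itga4, for comparison. They were picked with the expression results known. All 4 lie on the plus strand, Itga4 at chr2:79255176-79255475, Itgam at chr7:128062390-128062689, Itgax at chr7:128129300-128129599 and Itgb1 at chr8:128685404-128685703. Capitals mark GAGGAA, a core that PU.1-type factors bind, and GGGCGG, the GC box, searched on both strands so that TTCCTC and CCGCCC are the same matches read on the other strand. These motifs were settled on after several others had been counted in the same windows.
Itga4: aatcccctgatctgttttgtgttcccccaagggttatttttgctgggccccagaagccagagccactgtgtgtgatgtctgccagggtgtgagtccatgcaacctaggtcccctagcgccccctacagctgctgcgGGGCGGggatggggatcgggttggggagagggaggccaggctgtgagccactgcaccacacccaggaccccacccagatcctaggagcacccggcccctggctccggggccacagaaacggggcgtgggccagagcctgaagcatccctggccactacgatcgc
Itgam: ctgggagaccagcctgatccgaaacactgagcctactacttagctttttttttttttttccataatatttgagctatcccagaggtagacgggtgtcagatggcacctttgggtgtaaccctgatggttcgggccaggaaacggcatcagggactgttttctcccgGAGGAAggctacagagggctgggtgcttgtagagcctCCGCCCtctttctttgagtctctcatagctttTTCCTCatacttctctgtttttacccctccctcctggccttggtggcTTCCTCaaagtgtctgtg
Itgax: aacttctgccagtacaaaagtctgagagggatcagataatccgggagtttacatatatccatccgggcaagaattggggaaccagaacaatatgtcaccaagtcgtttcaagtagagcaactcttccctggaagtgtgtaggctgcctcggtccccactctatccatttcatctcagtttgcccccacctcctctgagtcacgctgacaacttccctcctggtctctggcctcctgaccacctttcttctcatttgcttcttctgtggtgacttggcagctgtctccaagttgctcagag
Itgb1: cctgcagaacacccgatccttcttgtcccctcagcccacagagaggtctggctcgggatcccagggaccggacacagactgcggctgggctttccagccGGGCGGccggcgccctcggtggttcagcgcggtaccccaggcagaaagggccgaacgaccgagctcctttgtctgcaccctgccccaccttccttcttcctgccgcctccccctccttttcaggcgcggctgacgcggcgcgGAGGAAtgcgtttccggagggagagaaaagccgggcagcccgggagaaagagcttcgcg
The Itgam window held 3 GAGGAA matches and 1 GC box. The Itgb1 window held 1 of each, the Itga4 window 0 GAGGAA and 1 GC box, and the Itgax window 0 of both. Among all 32851 promoter windows of this length in the table, 28.3% held GAGGAA and 35.7% held GGGCGG. The windows also differed in base composition. Itgb1 had 67.3% G and C with 27 CG pairs and Itga4 had 64.3% with 10, whereas Itgam had 50.3% with 6 and Itgax 50.0% with 5, beside a median of 7 CG pairs over all windows. A match describes the letters alone.

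Total counts ran from 25844958 to 37282772 per library, and the 10 integrin genes had between 186 (Itgal) and 84534 (Itgb2) counts in a library. Levels below are CPM (counts scaled to library size) after TMM scaling. Prkce, the gene named by the title, averaged 3.69 ± 1.16 CPM in WT mice on chow and 2.48 ± 0.445 on HFD, against 1.33 ± 0.346 and 1.41 ± 0.419 in meKO mice (SD, n = 3 each). It was lower in meKO than in WT on chow by a log2 fold change of -1.47 ± 0.31 (SE), with an edgeR adjusted p of 0.0794, and on HFD by -0.80 ± 0.31 with an adjusted p of 0.989. The macrophage marker Lyz2 read 69.3 CPM in meKO chow replicate 2, against 16293 to 21310 in the other meKO libraries and 30482 to 53835 in WT. The macrophage markers Adgre1 (513 to 697 CPM) and Cd68 (2538 to 3658 CPM) were present in all 12 libraries, as were the other 5 of the 8 on the list, described with the marker lists of other cells. WT chow replicates 1 and 2 stood apart in another way. Their gene levels followed transcript length (Spearman's rho across 11532 genes of 0.598 and 0.644), against -0.426 to 0.115 in the other 10 libraries. Results that rest on these libraries are given with them, without them, and after a correction for length and GC content.

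Per kilobase of transcript, the integrins covered a wide range of levels. Itgb2 was the highest of the 10 at 670 ± 73.7 CPM per kb over the 12 libraries (mean ± SD), followed by Itgb1 at 310 ± 22.9 and Itgam at 164 ± 43.0. The ranges of these 3 over the libraries did not overlap. Itgb5 came next at 57.3 ± 3.41. Below it came Itga6 (22.3 ± 5.40), Itgax (16.2 ± 5.35), Itga5 (15.3 ± 2.57), Itga4 (8.88 ± 3.06) and Itgav (8.40 ± 1.59), and each neighbouring pair in this run overlapped in its range over libraries. Itgal was the lowest at 1.95 ± 0.508, with 1.28 to 3.01 CPM per kb, below every library of the other 9. The level of the beta-2 chain therefore lay above the summed means of its 3 alpha partners, and Itgam was by far the most abundant of these. Of 16 further integrin subunits searched for, 7 were in the table. Itgb7, a partner of alpha-4, reached 60.6 ± 12.8 CPM per kb and overlapped Itgb5, while Itga9 (1.21), Itgb3 (0.985), Itgad (0.536), Itga2b (0.189), Itgae (0.166) and Itga1 (0.161) had means below that of Itgal.

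**Figure D1:**
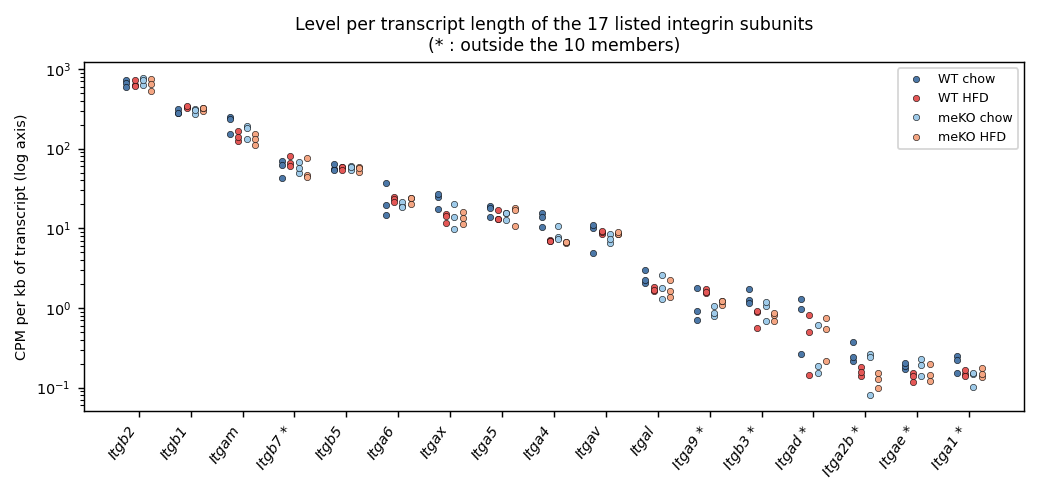
Level of each listed integrin subunit in CPM per kb of transcript on a log axis, 1 point per library, coloured by group; asterisks mark subunits outside the 10 members. Itgb2, Itgb1 and Itgam lie at the top, from 111 to 779 CPM per kb, and Itgal is the lowest of the 10 at 1.28 to 3.01.

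The question of the diet comparison in WT mice is which transcripts differ in macrophages of hypercholesterolemic and control animals. Of the 10 integrins, 2 fell on HFD, Itga4 and Itgax, and none rose (edgeR quasi-likelihood test, Benjamini-Hochberg adjusted p under 0.05 over all genes). In this comparison 21.3% of all genes passed and 11.8% passed with a lower level on HFD, so 2 of 10 is near the background. The median log2 fold change of the 10 was -0.15, beside -0.03 over all genes, and 8 of the 10 were negative, beside 53.0% of all genes. After a correction for transcript length and GC content, described further on, the median of the 10 was 0.09 and 4 were negative, beside 0.00 and 49.6% over all genes.

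Itga4, the alpha-4 chain of the VCAM-1 receptor, had the largest fall. Its levels were 152, 135 and 101 CPM in WT chow and 70.3, 68.0 and 66.8 CPM in WT HFD. All 3 chow libraries lay above all 3 HFD libraries, and the HFD libraries were close together. The fold change was 1.89-fold lower on HFD (log2 -0.92 ± 0.16, 95% interval -1.26 to -0.57, adjusted p = 0.00803). In meKO mice Itga4 read 75.1, 70.8 and 106 CPM on chow and 63.9, 66.0 and 66.5 on HFD, again with no overlap (as for 19.7% of all genes), but with a smaller difference that did not pass (log2 -0.36 ± 0.16, adjusted p = 0.302). Over both genotypes the 6 chow libraries spanned 70.8 to 152 CPM and the 6 HFD libraries 63.9 to 70.3. Itga4 was the only 1 of the 10 whose 6 chow and 6 HFD libraries did not overlap, a pattern that 5.76% of all genes showed. The gap between the lowest chow library, meKO chow replicate 2, and the highest HFD library, WT HFD replicate 1, was small.

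Itgax, the CD11c chain, had levels of 101, 109 and 71.4 CPM in WT chow and 60.2, 57.4 and 46.8 CPM in WT HFD. The groups did not overlap, and the fold change was 1.71-fold lower on HFD (log2 -0.78 ± 0.23, 95% interval -1.26 to -0.29, adjusted p = 0.0312). In meKO mice the levels were 55.7, 40.2 and 80.8 CPM on chow and 45.7, 54.5 and 64.6 on HFD. These groups overlapped fully, with a log2 difference of -0.10 ± 0.23.

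Itgam, the CD11b chain of the complement receptor CR3 and the most abundant alpha chain here, read 1166, 1091 and 715 CPM in WT chow and 575, 788 and 660 CPM in WT HFD. WT chow replicate 3 lay within the range of the HFD libraries, and the difference did not pass (log2 -0.56 ± 0.20, adjusted p = 0.0576). It lay near the threshold and passed with DESeq2 (log2 -0.54, adjusted p = 0.0333, which made 3 of 10 in WT), with libraries scaled by totals (-0.65, 0.0472), with quality weights (-0.74, 0.00136), without WT chow replicate 3 (-0.73, 0.00726) and without meKO HFD replicate 2 (-0.56, 0.0486). Each of these fits called more genes in WT than the 2634 of the main fit. Over all genes they called 3438 with DESeq2, 2741 with totals, 6411 with quality weights, 4921 without WT chow replicate 3 and 3081 without meKO HFD replicate 2. In meKO mice the Itgam values were 888, 612 and 861 CPM on chow and 713, 522 and 625 on HFD, with the groups overlapping (log2 -0.34 ± 0.20, adjusted p = 0.384). Itgal, the CD11a chain of LFA-1, was at 15.7, 10.8 and 11.8 CPM in WT chow and 8.48, 9.67 and 8.81 CPM in WT HFD. The groups did not overlap, yet the difference did not pass (log2 -0.51 ± 0.24, adjusted p = 0.132).

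None of the 3 beta chains passed in WT. Itgb2 read 2154, 1995 and 1771 CPM in WT chow and 1882, 2189 and 1822 CPM in WT HFD, with a log2 difference of -0.01 and a 95% interval of -0.31 to 0.29. Itgb1 read 1077, 1210 and 1065 CPM in WT chow and 1266, 1240 and 1328 CPM in WT HFD. All 3 HFD libraries were above the chow libraries, but the difference was small and did not pass (log2 0.19 ± 0.10, interval -0.02 to 0.41, adjusted p = 0.167). Itgb5 ran from 169 to 210 CPM over all 12 libraries, with a WT diet difference of -0.01 (interval -0.23 to 0.20). Itgax, Itgal, Itga4 and Itgb1 were thus the 4 of 10 integrins whose WT diet groups did not overlap, beside 39.3% of all genes. After the length and GC correction the number was 5 of 10, beside 37.4% of all genes. Itgal then overlapped (8.19 to 12.2 CPM on chow and 9.03 to 10.2 on HFD, log2 -0.16), while Itgav (35.6 to 58.2 and 60.0 to 69.2) and Itgb5 (163 to 189 and 192 to 205) were apart with HFD higher.

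Of the remaining alpha chains, Itga6 and Itgav varied most within WT chow. Itga5, the fibronectin receptor chain, ranged from 60.7 to 83.2 CPM in WT chow and from 57.5 to 74.1 in WT HFD (log2 -0.24 ± 0.19, adjusted p = 0.348). Itga6, a laminin receptor chain, read 85.3, 159 and 63.6 CPM in WT chow and 106, 99.0 and 90.8 in WT HFD, so that replicate 2 alone lay above the HFD range. Itgav, the RGD-binding alpha-V chain, read 71.4, 77.9 and 34.9 CPM in WT chow and 59.1, 62.7 and 64.9 in WT HFD, with replicate 3 at the lowest value of all 12 libraries. Neither passed in WT (adjusted p of 0.871 for Itga6 and 0.958 for Itgav).

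**Figure D2:**
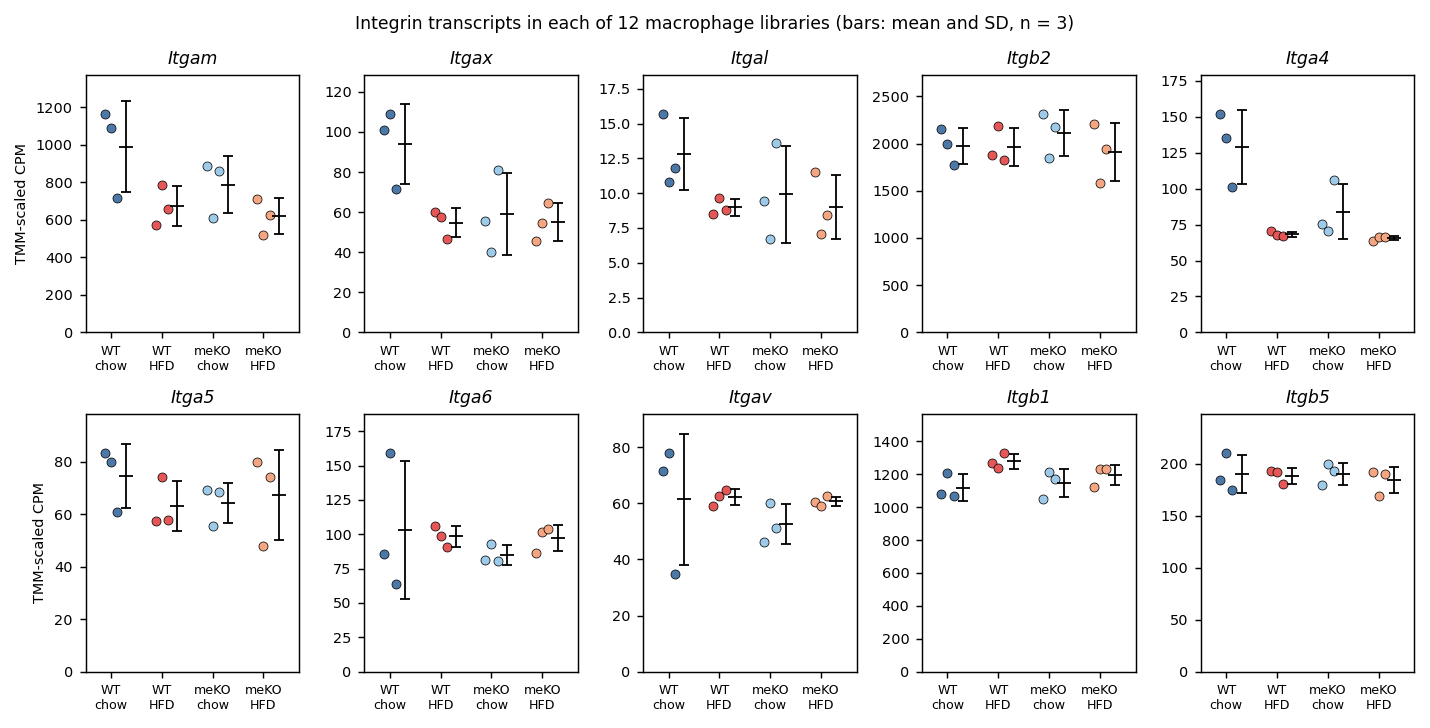
TMM-scaled CPM of the 10 integrin genes in each library by group, with the group mean and SD (n = 3) beside the points; each vertical axis starts at 0. The Itga4 points of the HFD groups lie between 63.9 and 70.3 CPM, below all chow points, while Itgb2 and Itgb5 overlap across all 4 groups.

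In meKO mice none of the 10 integrins passed between diets, where 0.105% of all genes passed. At an unadjusted p under 0.05 there was 1 of the 10, Itga4, beside 1962 of 12339 genes, and DESeq2 called 0 of the 10. Between genotypes on chow 0 of 10 passed, where 0.081% of all genes passed, although 2, Itga4 and Itgax, were below 0.05 before adjustment, beside 2447 of all genes. Itga4 was lower in meKO chow than in WT chow by log2 -0.62 ± 0.16 (interval -0.96 to -0.28, adjusted p = 0.103), and Itgax by -0.67 ± 0.23 (adjusted p = 0.148). The Itga4 ranges of 70.8 to 106 CPM in meKO and 101 to 152 CPM in WT overlapped. With DESeq2 the Itga4 difference passed (log2 -0.61, adjusted p = 0.0169), the only 1 of the 10 to do so, where 563 of all genes passed. Without WT chow replicate 3, Itga4, Itgax and Itgav passed in edgeR (adjusted p of 0.00538, 0.0313 and 0.0132). That fit called 2543 of the 12339 genes. It keeps only replicates 1 and 2 of WT chow, whose levels followed transcript length. With the length and GC correction the Itga4 difference was -0.25 (adjusted p = 0.402).

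On HFD the genotypes were close. None of the 10 passed, where again 0.081% of all genes passed, 0 were below an unadjusted 0.05, and DESeq2 called 0. The log2 differences of the 10 between meKO and WT lay between -0.12 (Itgam) and 0.09 (Itga5). For Itga4 the interval was -0.40 to 0.28, and for Itgax it was -0.48 to 0.49.

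The difference between genotypes in the diet effect was tested as an interaction. None of the 10 passed, where 0.0162% of all genes passed, and DESeq2 called 0. The largest were Itgax (log2 0.68 ± 0.32, unadjusted p = 0.0523, adjusted p = 0.797) and Itga4 (0.56 ± 0.23, unadjusted p = 0.0265, adjusted p = 0.791), both positive because the fall on HFD was smaller in meKO. Itga4 was the single member below an unadjusted 0.05. A weighted limma-voom fit gave Itga4 an adjusted p of 0.0473. The comparisons in WT and meKO are thus not shown to differ for these genes, and they share no libraries.

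With the diet effect averaged over both genotypes, 2 of 10 passed, Itga4 and Itgam, both lower on HFD. All genes passed at 30.2%, and at 15.3% with a lower level on HFD, so this count too is near the background. Itga4 was 1.56-fold lower (log2 -0.64 ± 0.11, adjusted p = 0.00461) and Itgam 1.37-fold lower (log2 -0.45 ± 0.14, adjusted p = 0.0286), while Itgax was at -0.44 ± 0.16 with an adjusted p of 0.0520. The averaged comparison uses the same libraries as the comparisons within each genotype and is no separate evidence. In the WT comparison 44.5% of the calls over all genes were higher on HFD, against 31.3% when libraries were scaled by totals alone and 57.6% after the length and GC correction. With totals the median of all genes in WT moved from -0.03 to -0.12, and Itga4 stood at -1.01 and Itgax at -0.87. In the averaged comparison the share of higher calls was 49.3%, and 38.1% with totals.

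**Figure D3:**
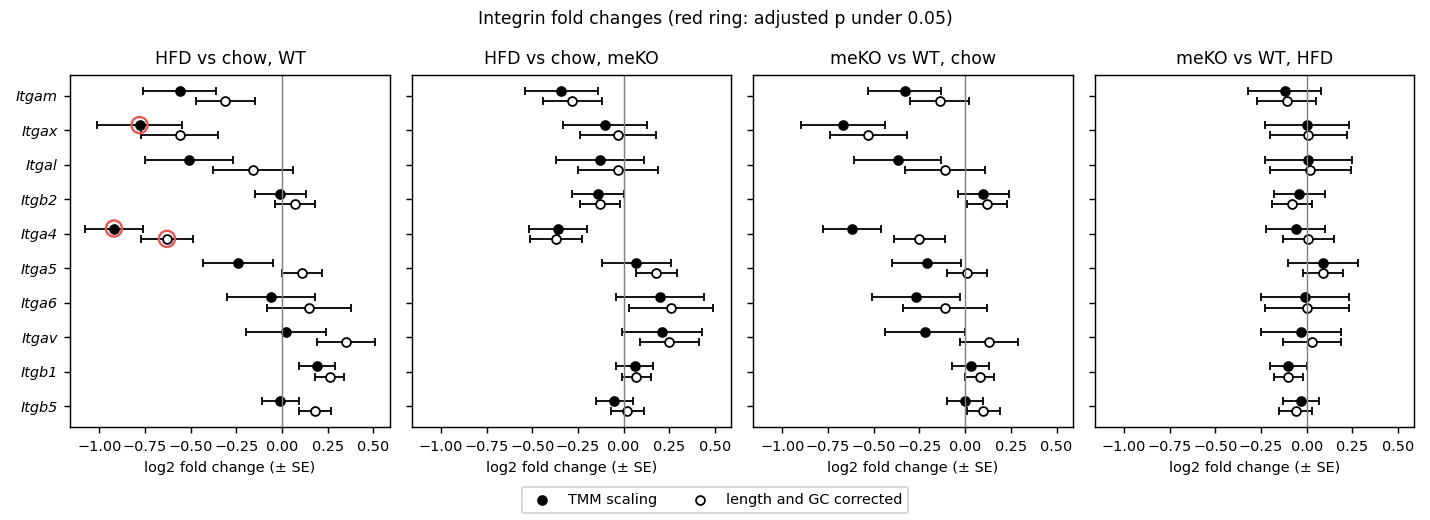
Log2 fold changes with SE of the 10 integrins in 4 comparisons, with TMM scaling (filled) and after the length and GC correction (open); a red ring marks an adjusted p under 0.05. In the WT diet panel Itga4 is ringed both times, at -0.92 and -0.63, and Itgax only without the correction, at -0.78.

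The highest Itga4 levels were found in the libraries whose levels followed transcript length most. Itga4 has the longest transcript of the 10, at 9767 bases, and it was highest in WT chow replicates 1 and 2 (rho of 0.598 and 0.644), then in meKO chow replicate 3 (0.115) and WT chow replicate 3 (-0.043), then in the other 8 libraries (-0.426 to -0.109). After a per-library correction for length and GC content, Itga4 read 123, 97.1 and 103 CPM in WT chow and 70.3, 69.9 and 69.1 in WT HFD. For meKO mice the corrected levels were 84.2, 73.5 and 115 CPM with chow and 69.6, 68.3 and 73.4 with HFD. WT chow replicates 1 and 2 then no longer stood above meKO chow replicate 3 as a pair. All 3 WT chow libraries still lay above all HFD libraries. Pearson's r of log2 Itga4 with the rho of the 12 libraries was 0.93 before the correction and 0.79 after it. For Itgam it was 0.89 and 0.77, and for Itgax 0.84 and 0.73. The corrected levels of these genes thus still followed the length trend of the libraries. The corrected WT diet difference was -0.63 ± 0.14 (adjusted p = 0.0172), the corrected averaged difference -0.50 ± 0.10 (adjusted p = 0.00644), and the corrected meKO difference -0.37 ± 0.14 (adjusted p = 0.197). The corrected values of Itgax (-0.56 ± 0.21, adjusted p = 0.0941) and Itgam (-0.31 ± 0.16, adjusted p = 0.186) in WT did not pass. Itgav turned from 0.02 to 0.35 ± 0.16 (adjusted p = 0.145) and Itgb1 went from 0.19 to 0.26 ± 0.08 (adjusted p = 0.0543).

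**Figure D4:**
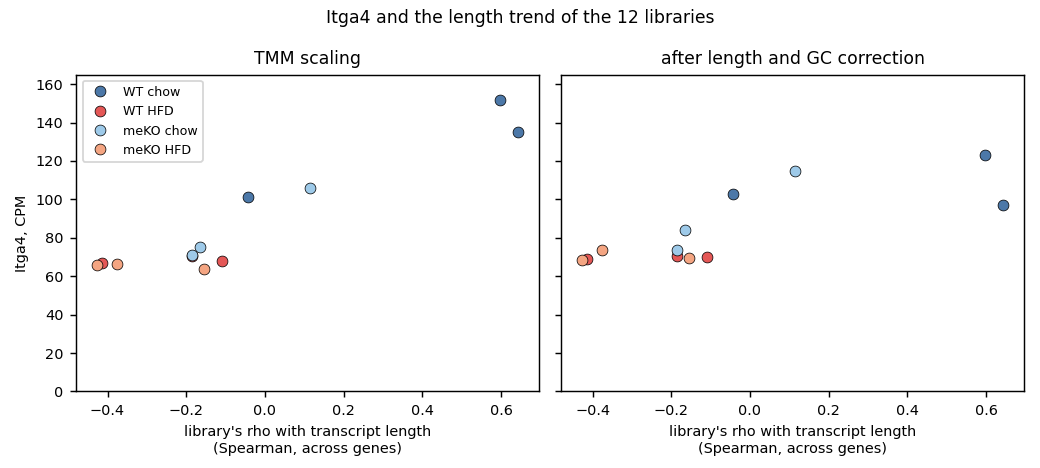
Itga4 CPM in each library against that library's Spearman correlation of gene level with transcript length, before (left) and after (right) the length and GC correction. WT chow replicates 1 and 2, at rho 0.598 and 0.644, drop from 152 and 135 CPM to 123 and 97.1, and the HFD libraries stay between 68.3 and 73.4 on the right.

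When WT chow replicates 1 and 2 were both left out, which leaves 1 WT chow library assumed to vary like the other groups, 0 of 10 integrins passed in WT, where 15 of all genes passed. Itga4 then stood at -0.56 (adjusted p = 0.365) and Itgax at -0.38 (adjusted p = 0.692). In the averaged comparison the single call was then Itgav, higher on HFD (log2 0.52, adjusted p = 0.0284), and Itga4 was at -0.46 (adjusted p = 0.0629). Itga4 in WT was also not called without WT HFD replicate 3 (log2 -0.89, adjusted p = 0.0518). Itgax in WT was not called without WT chow replicate 1 (log2 -0.70, adjusted p = 0.121) or 2 (-0.64, 0.119), nor without WT HFD replicate 1 (-0.84, 0.0660), 2 (-0.81, 0.0587) or 3 (-0.67, 0.134), beside -0.78 with all libraries. The averaged Itgam call was lost with the length and GC correction (log2 -0.29, adjusted p = 0.0673) and in fits that left out replicate 1 (-0.38, 0.0784) or 2 (-0.41, 0.0660) of WT chow, replicate 1 (-0.40, 0.0680) or 3 (-0.44, 0.0659) of WT HFD, meKO chow replicate 1 (-0.40, 0.0629) or 3 (-0.41, 0.0705), and meKO HFD replicate 2 (-0.40, 0.0700) or 3 (-0.45, 0.0525). With all libraries it was -0.45.

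Since an integrin needs both chains, the alpha transcript was also set against its beta partner within each library, as a log2 ratio of CPM with no test. Itga4 relative to Itgb1 was -2.83, -3.17 and -3.40 in WT chow and -4.17, -4.19 and -4.31 in WT HFD, a difference in means of -1.09. Among meKO libraries it was -3.81, -4.10 and -3.46 with chow and -4.14, -4.22 and -4.21 with HFD, a difference of -0.40. All 6 chow ratios lay above all 6 HFD ratios, by a narrow gap between -4.10 and -4.14, which closed after the length and GC correction (lowest chow and highest HFD ratio both -4.06). Itgam relative to Itgb2 was -0.89, -0.87 and -1.31 in WT chow and -1.71, -1.47 and -1.46 in WT HFD. These groups did not overlap, although the Itgam levels themselves did. In meKO the Itgam to Itgb2 ratio was -1.38, -1.60 and -1.34 on chow and -1.63, -1.60 and -1.63 on HFD. Itgax relative to Itgb2 averaged -4.41 ± 0.22 in WT chow, -5.17 ± 0.17 in WT HFD, -5.22 ± 0.41 in meKO chow and -5.12 ± 0.41 in meKO HFD, so WT chow stood apart from the other groups. Of the 8 ratios, 4 had separate diet groups in WT, those of Itgam, Itgax and Itgal to Itgb2 and of Itga4 to Itgb1. In meKO 3 did, Itgam to Itgb2, Itga4 to Itgb1 and, in the other direction, Itgav to Itgb5. For Itgam to Itgb2 in meKO the lowest chow and the highest HFD ratio both round to -1.60, so that gap was very small. After the correction these counts were 3 and 1. When every other gene of the table was set against the same beta chains before the correction, the WT diet groups were apart for 28.7% of ratios to Itgb2, 42.5% to Itgb1 and 33.7% to Itgb5, and the meKO groups for 10%, 15.6% and 15.5%. With so few ratios, several sharing a beta chain, the counts are given as a description.

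**Figure D5:**
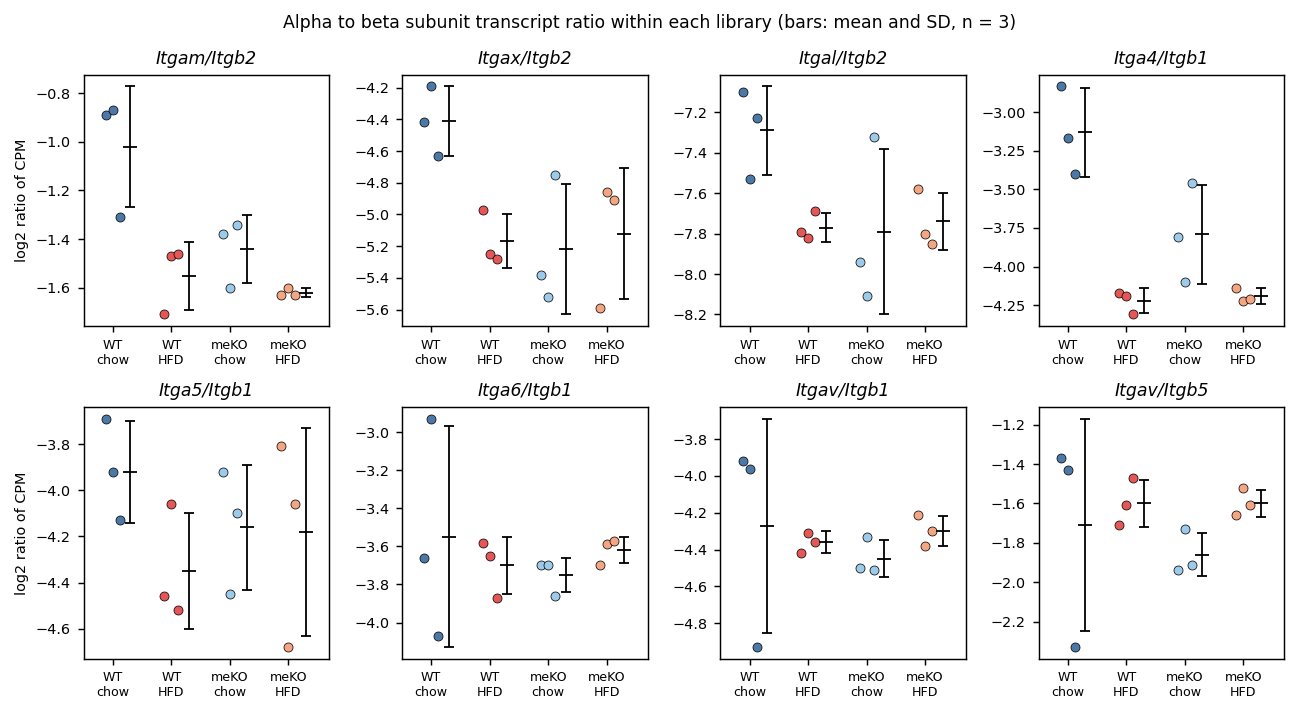
Log2 ratio of alpha to beta subunit CPM within each library for 8 pairs, by group, with the mean and SD (n = 3); the vertical axes differ between panels. Itga4 to Itgb1 goes from a mean of -3.13 in WT chow to -4.22 in WT HFD, and the 3 meKO HFD libraries lie between -4.22 and -4.14.

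Across the 12 libraries, the genes most like each integrin were taken by Pearson's r of log2 CPM after the length and GC correction, as a description over libraries that share group and depth. For Itga4 these were Cd74, the invariant chain of MHC class II (r = 0.97, and 0.80 without the correction), and Ciita, the master regulator of MHC class II genes (0.97, and 0.98 without). For Itgam they were Ncln (0.95) and Gtdc1 (0.94), for Itgax Gm3414 (0.95) and Wdr7 (0.92), and for Itgb2 Atp8b4 (0.93) and Plcg2 (0.91), a phospholipase of Fc receptor and integrin signalling. For Itgb1 the gene most alike was another integrin, Itga9 (0.96, and 0.83 without), a beta-1 partner. Some matches existed only on the corrected values, as for Itgal with Rsl24d1 (0.85, and -0.48 without) and Itga5 with Dnaja2 (0.86, and -0.40 without). Among the integrins themselves the highest r was that of Itgb1 with Itgb5 (0.85, and 0.25 without), followed by Itga4 with Itgax (0.76, and 0.90 without) and with Itgam (0.73, and 0.82 without). The lowest was that of Itga4 with its own beta chain Itgb1 (-0.80, and -0.45 without). Of the other pairs that form a receptor, Itgav with Itgb1 was at 0.72 (0.52 without), Itgam with Itgb2 at 0.62 (0.67 without) and Itgax with Itgb2 at -0.02 (0.21 without).

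The levels of several macrophage markers also differed between the diet groups, given here as values. Mrc1, the mannose receptor, spanned 382 to 664 CPM in the 6 chow libraries and 263 to 325 in the 6 HFD libraries. Mertk, a receptor for dying cells, spanned 83.8 to 122 and 56.7 to 78.9. Adgre1 spanned 597 to 697 and 513 to 586. None of these genes overlapped between the diets, a pattern that 5.76% of all genes showed. Csf1r, the receptor for M-CSF, was at 788 to 844 CPM in WT chow and 583 to 685 in WT HFD, and at 628 to 748 and 473 to 716 in meKO. Fcgr1 and Cd14 were higher on HFD in WT by their means. Fcgr1, an Fc receptor, read 101 to 174 CPM in WT chow and 173 to 220 in WT HFD, and 114 to 179 and 184 to 218 in meKO. Cd14, the LPS co-receptor and one of the integrin partners called in WT, read 136 to 175 and 192 to 221 in WT, and 152 to 189 and 173 to 225 in meKO. The part of these differences in the integrin values was not tested.

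Marker lists of some other cell types also differed between the diet groups. The B cell list had 5 of 6 markers in the table and summed to 106 to 163 CPM in WT chow, 51.9 to 87.2 in WT HFD, 72.2 to 159 in meKO chow and 55.5 to 110 in meKO HFD. The dendritic cell list, all 6 markers present, summed to 31.3 to 46.7 CPM in WT chow, 15.9 to 24.3 in WT HFD, 22.1 to 43.9 in meKO chow and 23.4 to 35.8 in meKO HFD. Itga4 is also expressed by B cells and dendritic cells, and Itgax by dendritic cells. The mesothelium and fibroblast list, 8 of 8 present, went the other way in its sum. That sum was 50.5 to 88.9 CPM in WT chow and 89.4 to 135 in WT HFD, and 50.5 to 94.0 and 108 to 133 in meKO. Its genes did not all rise in WT. Dcn (19.7 to 27.1 CPM on chow, 33.2 to 52.2 on HFD) and Krt19 (1.49 to 2.61 and 4.92 to 5.6) were apart. The rest of the list overlapped between the diets in WT. Of these, Col1a1 (means of 8.16 and 8.02) and Lum (0.961 and 0.826) were slightly lower on HFD. The part of these cell types in the integrin values was not tested. In bulk RNA, fewer cells of a type and less RNA per cell cannot be told apart.

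The other genes of the integrin system were read from 5 lists. None of their genes passed between diets in meKO, between genotypes on either diet, or in the interaction. In WT, beside the 21.3% of all genes that passed, 9.5% with a higher level on HFD, the lists held 22 called genes. All 22 calls were lost without WT chow replicate 1 and all 22 without WT HFD replicate 3. The direction of the fold stayed the same each time. Over all genes, the 2634 calls of this comparison became 129 and 96 in those fits, so the loss was not particular to the lists. Of the 7 other integrin subunits, 1 fell on HFD in WT, Itgb3, the beta-3 chain of the vitronectin receptor. It averaged 7.96 ± 1.77 CPM on chow and 4.57 ± 1.14 on HFD (log2 -0.81 ± 0.24, adjusted p = 0.0327), and after the length and GC correction the difference was -0.44 (adjusted p = 0.181). Without WT chow replicate 1 it was -0.59 (adjusted p = 0.170). After the correction the subunit called in this list was instead Itga9, higher on HFD. In WT it stood at log2 0.99 (adjusted p = 0.0163), against 0.52 (adjusted p = 0.151) before the correction. Averaged over genotypes the corrected Itga9 difference was 0.73 (adjusted p = 0.00753).

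Of 26 activators and cytoskeletal linkers, 23 were in the table, and in WT 1 rose and 1 fell on HFD (list median 0.11), below the share of all genes. The one that fell was Apbb1ip, which encodes RIAM, the Rap1 effector that brings talin to integrins. It read 178, 148 and 142 CPM in WT chow and 75.1, 90.9 and 67.0 in WT HFD, with every chow library above every HFD library (log2 -1.01 ± 0.20, adjusted p = 0.0118). The correction left it at -0.99 (adjusted p = 0.0252), whereas leaving out WT chow replicate 1 (-0.89, adjusted p = 0.0711) or replicate 3 of WT HFD (-0.90, 0.0746) ended the call. In meKO it read 112, 79.2 and 112 CPM on chow and 86.9, 47.7 and 66.6 on HFD. Rap1a, the small GTPase upstream of RIAM, averaged 167 ± 33.6 CPM in WT chow and 225 ± 21.8 in WT HFD (log2 0.44 ± 0.14, adjusted p = 0.0396, and 0.19 with an adjusted p of 0.140 after the correction), and its call was lost in 6 of 12 fits without 1 library (adjusted p of 0.0505 to 0.172, with log2 0.34 at the lowest). Talin itself, Tln1, did not pass (386, 492 and 230 CPM against 280, 335 and 270 in WT), nor did the leukocyte kindlin Fermt3 (198, 205 and 183 against 155, 188 and 149). Tln1 and Fermt3 were picked for their role after values were seen. With the diet averaged over genotypes, 4 of the 23 rose and 3 fell. Of all genes 14.9% passed with a higher level and 15.3% with a lower one. The actin linker Parvg fell (log2 -0.50 ± 0.12, adjusted p = 0.0107). The kindlin Fermt2 and the actin linker Parva rose from means near 1 CPM (log2 1.17 ± 0.30 and 0.95 ± 0.27, adjusted p of 0.0147 and 0.0214). Parvg, Fermt2 and Parva also passed after the correction (-0.47, 1.16 and 1.14, adjusted p of 0.00838, 0.0182 and 0.0116). Parva lost its call without WT HFD replicate 3 (0.89, 0.0555) or meKO HFD replicate 2 (0.83, 0.0570). Without WT chow replicates 1 and 2, which leaves 1 WT chow library, the calls of Parvg, Fermt2 and Parva were lost. Their log2 values were then -0.45, 1.66 and 1.29.

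Of 25 signalling kinases and adaptors, 24 were in the table, and in WT 1 rose and 5 fell on HFD, with a list median of -0.21, which is near the share of all genes. The 5 included Elmo1 and Dock1, which form the exchange factor that activates Rac below integrins during engulfment. Elmo1 read 63.5, 60.8 and 45.2 CPM in WT chow and 29.8, 35.3 and 30.3 in WT HFD (log2 -0.83 ± 0.15, adjusted p = 0.00853). Dock1 read 51.2, 48.3 and 31.9 CPM in WT chow and 24.9, 25.4 and 26.0 in WT HFD (log2 -0.78 ± 0.18, adjusted p = 0.0157). In both genes WT chow replicates 1 and 2 were the highest of all 12 libraries. The ubiquitin ligase Cbl (-0.66 ± 0.18) and the adaptor and exchange factor Vav2 (-0.79 ± 0.21) fell as well (adjusted p of 0.0248 and 0.0250). Without single libraries Elmo1 lost its call in 2 of 12 fits (adjusted p of 0.0502 and 0.0590) and Dock1 in 4 (0.0536 to 0.0888), at a log2 of -0.72 and -0.64 without WT chow replicate 1. Cbl and Vav2 lost theirs in 5 fits each (adjusted p up to 0.115 and 0.117). After the length and GC correction the list median was 0.00, and of these 4 only Elmo1 (-0.56, adjusted p = 0.0108) and Dock1 (-0.40, adjusted p = 0.0386) passed.

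Of 29 ligands, 19 were in the table, and in WT 3 rose and 2 fell on HFD (list median 0.03), again near the share of all genes. F11r, the junctional adhesion molecule bound by LFA-1, rose from 1.27 ± 0.219 to 2.75 ± 0.513 CPM (log2 1.11 ± 0.24, adjusted p = 0.0139), and Cd47, an integrin-associated protein, from 202 ± 30.2 to 264 ± 24.1 CPM (log2 0.39 ± 0.12, adjusted p = 0.0379). Spp1, osteopontin, a ligand of alpha-V and alpha-4 integrins, read 3010, 4379 and 2810 CPM in WT chow and 4878, 5444 and 5812 in WT HFD (log2 0.66 ± 0.22, adjusted p = 0.0448). It was named after its values were seen, and after the correction it stood at 0.23 (adjusted p = 0.577). Emilin1, a matrix ligand of alpha-4 beta-1, fell from 30.5 ± 3.54 to 17.0 ± 2.77 CPM (log2 -0.85 ± 0.20, adjusted p = 0.0178). Vwf fell by 0.57 on the log2 scale (adjusted p = 0.0351), and stood at -0.02 after the correction, whereas F11r, Cd47 and Emilin1 passed there too. Without single libraries the F11r call was lost in 2 of 12 fits (adjusted p of 0.0635 and 0.0789), those of Cd47, Emilin1 and Vwf in 4 each (highest adjusted p of 0.160, 0.0930 and 0.169) and that of Spp1 in 7 (0.0509 to 0.155).

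The list of tetraspanins and other surface partners of integrins held 14 symbols. Of these, Cd98 is a second name of Slc3a2, and the 13 others were in the table. In WT 7 rose and 1 fell on HFD, with a list median of 0.33, a larger share than the 21.3% of all genes. Cd9, a tetraspanin that binds beta-1 integrins, read 545, 554 and 644 CPM in WT chow and 899, 940 and 950 in WT HFD (log2 0.68 ± 0.13, adjusted p = 0.0107), but 0.24 with an adjusted p of 0.148 after the correction. Bsg, the glycoprotein basigin, went from 274 ± 31.4 to 390 ± 19.4 CPM (log2 0.51 ± 0.12, adjusted p = 0.0179). Plaur, the urokinase receptor that associates with CD11b, went from 180 ± 15.6 to 248 ± 18.7 CPM (log2 0.47 ± 0.12, adjusted p = 0.0205). Both passed after the correction (adjusted p of 0.0187 and 0.0263). In that fit 3 of the 13 partners passed, all among the 8 called before, and the list median was 0.22. Over all genes 1603 of 12339 passed there. Sirpa, the receptor for Cd47, fell from 1365 ± 140 to 1015 ± 67.2 CPM (log2 -0.43 ± 0.12, adjusted p = 0.0266), and did not pass after the correction (-0.18, adjusted p = 0.160). Without single libraries Cd9 lost its call in 2 of 12 fits (adjusted p of 0.0587 and 0.0589), Plaur in 3 (0.0808 to 0.0976), Bsg in 4 (0.0517 to 0.0937) and Sirpa in 4 (0.0722 to 0.122). With WT chow replicates 1 and 2 left out, 0 genes of any of the 5 lists passed in WT.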

How the data were processed

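The authors deposited whole-number counts per gene for 12 libraries of total RNA, extracted with Trizol and prepared by the TruSeq protocol per the labels. The submitters' processing notes name mm10 and DESeq2 without giving their roles, and the aligner, counting tool and strand setting are not given in the sources used here. Rows without a gene symbol (186) held 0.44% of counts. Every listed gene reached 0.501 CPM in 6 libraries, so the table looks filtered on low values, and totals cover its genes alone.

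Groups came from sample titles, and replicate numbers follow accession order. The tests used edgeR 4.0.16 (R 4.3.3) with TMM factors, filterByExpr (all 12339 genes kept), robust quasi-likelihood F tests in a model of the 4 group means over all 12 libraries, two-sided, with Benjamini-Hochberg adjustment over all genes and a threshold of 0.05. SE is the log2 fold change divided by the square root of F, and intervals use edgeR's degrees of freedom. The length and GC correction removed a smooth trend per library (mgcv 1.9.3) over the longest GENCODE vM21 transcript and its GC content, known for 11532 genes (93.46%). Likeness used log2 of CPM plus 0.5. Alternatives included DESeq2 1.42.0 and limma 3.58.1. The fits were tested on simulated data.

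All 10 integrins are described in every comparison. From each gene list and comparison at most 4 called genes were named, taken in order of p. Spp1, Tln1, Fermt3 and the tests of Itga9 were added after their values were seen. The members and lists were chosen with earlier results of these data known.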

Additional observations from a re-analysis of the deposited data

How the results depend on the processing

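The alternatives were 2 other scalings, 2 other filters on low counts, DESeq2, limma-voom without and with library quality weights, a fit to the libraries of the contrast alone, the length and GC correction, and leaving out each library. Leaving out WT chow replicates 1 and 2 together was added after the data were seen. Over all 1986 values of single integrins and list genes under alternatives, 0 values past the threshold changed direction, and 98 values that passed in neither setting changed sign and were not counted as reversals. Itga4 in WT passed in 20 of 22 alternatives and Itgax in 15 of 22; averaged over genotypes, Itga4 passed in 20 of 21 and Itgam in 11 of 21.

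The diet comparison in WT called 2634 genes and 2 integrins. These counts became 6411 and 5 with quality weights, 1603 and 1 with the length and GC correction, 15 and 0 without WT chow replicates 1 and 2, and 96 to 4921 and 0 to 3 when single libraries were left out. Without WT HFD replicate 3 it called 96 genes, and without WT chow replicate 3 it called 4921. The diet comparison in meKO called 13 genes, and 226 with DESeq2, 398 with quality weights, 1 with the libraries of the contrast alone, 45 with the correction and 1 to 135 without single libraries, with 0 integrins throughout. Genotype on chow called 10 genes, and 2 with library totals, 563 with DESeq2, 2 with limma-voom, 4047 with quality weights, 5 with the contrast alone, 4 with the correction, 3 without both WT chow libraries and 2 to 2543 without single ones; its integrin count of 0 became 1 with DESeq2, 4 with quality weights and 0 to 3 without single libraries. Genotype on HFD called 10 genes, and 53 with DESeq2, 5 with limma-voom, 128 with quality weights, 34 with the contrast alone, 16 without both WT chow libraries and 3 to 16 without single ones. The averaged diet comparison called 3721 genes and 2 integrins, and 6298 genes with quality weights, 202 genes and 1 integrin without both WT chow libraries, 1 integrin with the correction, and 1957 to 5326 genes and 1 to 3 integrins without single libraries. The interaction called 2 genes, and 1 with at least 10 counts in every library, 15 with DESeq2, 295 (1 integrin) with quality weights, 4 with the correction and 1 to 56 without single libraries. With the correction the WT diet differences in ratio moved to -0.88 for Itga4 to Itgb1, -0.21 for Itgal to Itgb2 (from -0.48) and -0.15 for Itga5 to Itgb1 (from -0.43). The cause of these changes was not tested, beyond the fewer libraries of the fits that left some out.

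No paired analysis was possible because replicate numbers only follow accession order. With 3 libraries a group, differences the size of the SEs given could not be resolved, and Itgal (186 to 555 counts a library) carried the most counting error of the 10.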
